A study of Prunus dulcis and Malus domestica and Olea europaea with 8 samples.

Results

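The peach miRNA annotation used for 8 plant-based foods holds 65 genes whose family number is 6000 or above, of 209 miRNA genes in all. The rule reads only that number from the gene name and uses no measured value, but it was set with earlier results of these data known. miRBase, the public miRNA registry, numbers families in the order in which they are registered, so a high number marks a family that was described late, and such families are often known from 1 plant or a few related ones. All 65 genes carry the peach prefix, and they form 54 families, of which 40 (50 genes) are numbered from 6257 to 6297 and 12 (12 genes) from 8122 to 8133, beside MIR7122 with 2 genes and MIR7125 with 1.

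Plant miRNAs are cut from hairpin precursors by DICER-LIKE enzymes and guide ARGONAUTE proteins to mRNAs with a nearly complementary site. The old families, such as miR156 or miR166, are shared by most land plants and regulate transcription factors, whereas young families are often transcribed weakly, arise and vanish quickly in evolution, and in many cases have no known target. miR7122 is an exception with a described role. In apple it starts the production of phased secondary small RNAs from mRNAs of pentatricopeptide repeat (PPR) proteins, a large class of RNA-binding proteins of mitochondria and chloroplasts. miR7125 was described in apple as a regulator of a cinnamoyl-CoA reductase gene of lignin synthesis. For the other families no role is stated here.

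The foods were almond (Prunus dulcis), pear (Pyrus communis), apple (Malus domestica), orange (Citrus sinensis), olive (Olea europaea), tomato (Solanum lycopersicum), walnut (Juglans regia) and spinach (Spinacia oleracea), in each case the edible portion, used raw in the 7 foods whose preparation the study describes. Almond, pear and apple belong to the rose family, as peach does, and almond is in the same genus as peach. The other 5 foods belong to 5 other plant families. By the labels, 0.5 g of almond and of walnut and 0.1 g of each other food were ground, although the study's methods give another mass for walnut. Almond thus differed in labelled input from 6 of the other 7 foods, and the part of input mass in the almond values was not tested. Each food was 1 library from 1 sample, so there was no spread between samples and no test between foods, and every ratio compares libraries, not plants.

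The values are raw read counts per miRNA gene, both arms of a hairpin summed, after the reads of every food had been placed on the peach genome. The total over all 209 genes, the depth of a library here, was 56996 in almond, 108997 in pear and 212021 in apple, and it ran from 39249 in walnut to 90651 in tomato among the other 5 foods. A level is the share of this total in percent. Intervals are exact at the 95% level, by the Clopper-Pearson method for a share and by the conditional binomial method for a ratio of 2 shares. They cover counting error only, and the reads had no molecular identifiers. Where a gene had 0 counts, 3 counts of the total were taken as the limit, from 0.00141% in apple to 0.00764% in walnut. In such mixed tissue, fewer cells of a type and less RNA per cell cannot be told apart, nor can either be told apart from a read sequence that differs too much from peach to be placed.

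By summed share, the high-numbered genes stood higher in almond and pear than in the other 6 foods. They held 14.96% of all miRNA counts in almond (8529 counts, 95% CI 14.7 to 15.3) and 1.98% in pear (2159 counts, 1.90 to 2.07). Of the pear counts, 1644 were on MIR7122a and 408 on MIR7125. Orange had 0.101% (68 counts, 0.0788 to 0.129), olive 0.0621% (42 counts), tomato 0.0607% (55 counts) and apple 0.0458% (97 counts, 0.0371 to 0.0558). Walnut had 0.0204% (8 counts, 0.00880 to 0.0402) and spinach 0.0164% (9 counts, 0.00749 to 0.0311). Apple, a member of the rose family and the deepest library, thus lay among the foods outside the family and not beside pear. Of the 10967 counts on these genes in all 8 libraries, 77.8% were in almond, and almond and pear together had 97.5%.

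MIR7122a carried most of this. It held 80.0% of the high-numbered counts in almond, 76.1% in pear and 75.0% in orange, against 28.6% in olive, 10.3% in apple and 1.82% in tomato. Without MIR7122a the other 64 genes still held 2.997% of all miRNA counts in almond (1708 counts, 2.86 to 3.14) and 0.472% in pear (515 counts, 0.433 to 0.515). Of these 515 counts in pear, 408 were on MIR7125 alone. In the remaining 6 foods these 64 genes held between 0.0164% (spinach) and 0.0596% (tomato), and the orange share dropped to 0.0254% (0.0148 to 0.0406).

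**Figure D1:**
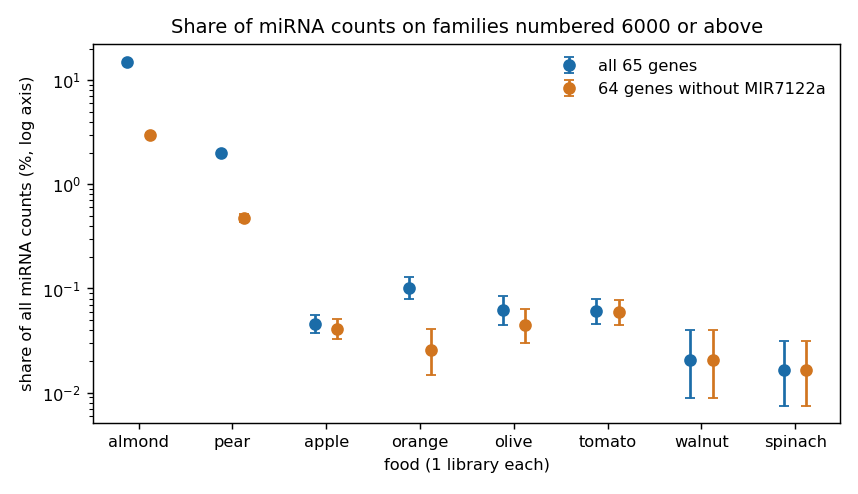
Share of all miRNA counts (percent, log axis) on the 65 genes of high-numbered families (blue) and on the 64 genes without MIR7122a (orange) in each of the 8 foods, 1 library each. Points are shares and bars exact 95% Clopper-Pearson intervals for counting error; almond and pear stand above the other 6 foods on both measures, at 14.96% and 1.98% for all 65 genes.

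At least 1 count in some food was found for 57 of the 65 genes, or 87.7%, against 89.5% of all 209 miRNA genes. The share that reached more counts was lower: 34 of the 65 (52.3%) had at least 3 counts in a food, against 72.2% of all genes, and 18 (27.7%) had at least 10 counts, against 54.5% of all genes. With all 8 foods the high-numbered genes were thus counted somewhere about as often as the rest of the annotation, but mostly at a few reads. This rested on almond: without its library 49 of the 65 genes were counted, against 176 of all 209, a lower share. Of the 520 values (65 genes in 8 foods), 132 were above 0, and 79 of these were 1 or 2 counts. Outside almond 68 of 93 values above 0 were 1 or 2 counts, while in almond 11 of 39 were. Of the 39 genes counted in almond 28 thus had at least 3 counts, against 97 of 123 over all 209 genes. In pear it was 7 of 16, against 79 of 105 over all genes, and in tomato 5 of 22, against 70 of 106. In the other foods too this share was lower for the 65 genes than for all genes.

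Almond was the food in which they were counted most often. It had 39 of the 65 genes with at least 1 count (60%), close to the 58.9% of all 209 genes counted there. In every other food the share of the 65 was below that of all genes. Tomato had 22 (33.8%, against 50.7% of all genes), olive 17 (26.2%, against 48.8%), pear 16 (24.6%, against 50.2%) and orange 16 (24.6%, against 46.4%). Apple had 14 (21.5%, against 46.4%), spinach 6 (9.23%, against 33.0%) and walnut 2 (3.08%, against 32.5%).

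Almond also had the most genes of the whole annotation, with 123. These numbers depend on depth and on the minimum. If each library were drawn down to the 39249 counts of walnut, 36.5 of the 65 genes would be expected in almond (56.2%, against 55.9% of all genes), 13.5 in tomato (20.7%, against 41.7%), 11.7 in olive (18.04%, against 43.4%) and 10.3 in pear (15.8%, against 41.3%). In orange it would be 10.1 (15.6%, against 41.8%), in apple 6.54 (10.1%, against 31.6%), in spinach 4.75 (7.31%, against 30.8%) and in walnut 2 (3.08%, against 32.5%). The almond share of the 65 genes was thus close to that of all genes at equal depth too. With at least 3 counts the number was 28 in almond (43.1%, against 46.4% of all genes), 7 in pear (10.8%, against 37.8%), 5 in apple (7.69%, against 32.5%) and 5 in tomato (7.69%, against 33.5%). It was 4 in olive (6.15%, against 34.0%), 2 in orange (3.08%, against 34.4%) and 1 each in walnut and spinach (1.54%, against 23.4% in walnut and 22.5% in spinach). With at least 10 counts it was 14 in almond (21.5%, against 32.1% of all genes), 5 in pear (7.69%, against 27.8%), 4 in apple (6.15%, against 22.0%) and 2 in tomato (3.08%, against 21.1%). Olive and orange had 1 each (1.54%, against 21.5% in olive and 25.4% in orange), and walnut and spinach had 0, against 16.3% of all genes in walnut and 15.8% in spinach. With these minimums the share of the 65 genes was below that of all genes in almond as well. Tomato, second in genes with at least 1 count, was thus behind pear once genes with 1 or 2 counts were set aside.

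**Figure D2:**
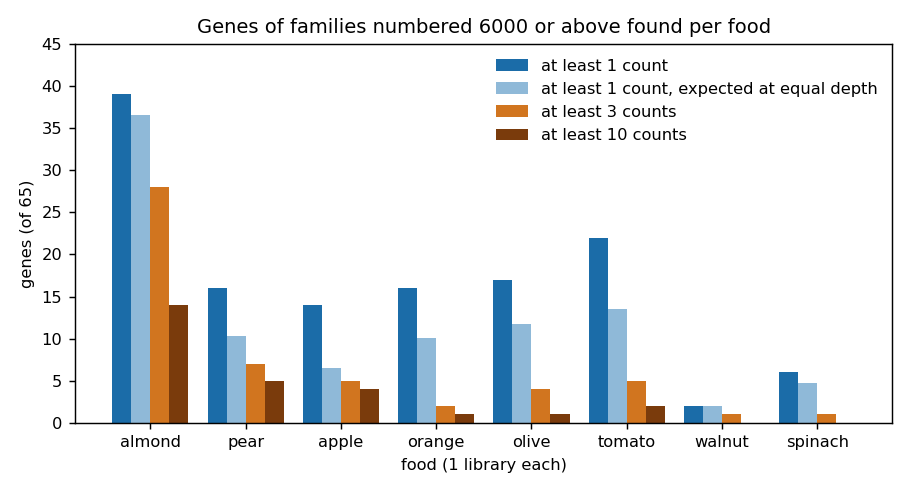
Number of the 65 high-numbered genes found per food (vertical axis, genes), as bars for at least 1 count, for at least 1 count expected at the depth of the smallest library, for at least 3 counts and for at least 10 counts. Almond has the most genes under each rule, 39, 36.5, 28 and 14, and in tomato the number drops to 2 at the highest minimum.

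Of the 65 genes, the 18 with 10 or more counts somewhere fell into a group of 14 with the highest share in almond and a group of 4 with the highest share in pear. Without the almond library 6 of the 65 genes reached 10 counts. The same number over all 209 genes was not taken, so the drop is not set against the whole table. Most of the 18 were thus selected through the food in which they were high, and the split only describes them. Over all 65 genes, 35 had their highest share in almond (53.8%), against 28.7% of all 209 genes. Some of the 35 rested on 1 or 2 almond counts. MIR6272, MIR6294 and MIR6297a had 1 count in almond and 1 in apple, and MIR6291c had 3 in almond and 4 in pear. In these genes almond led only through its smaller total. For 9 of the 65 genes (13.8%) there was a share in almond at least 10 times that in each other food, with counts below 3 set to 3, against 6.70% of all genes. The count of 9 depends on the scaling of the libraries. It was 15 by deposited normalized reads, against 35 of all 209 genes, and 4 by edgeR TMM sizes, against 8 of all 209 genes. The other genes past that fold in shares were MIR535a, MIR535b, MIR1511, MIR482d and MIR482e. The same rule for pear was met by MIR7125 among the 65 genes (1.54%), against 0.957% of all genes.

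MIR7122a, the PPR-related gene, was the highest of them. It lies on peach chromosome G1 (NCBIv2) from 2253872 to 2254049 on the + strand and is annotated, like each gene of the table, as the exon of a miRNA gene (ENSRNA049995989). It had 6821 counts in almond, 1644 in pear, 51 in orange, 12 in olive, 10 in apple, 1 in tomato and 0 in walnut and spinach. In almond it was the second highest of the 123 miRNA genes counted, with 12.0% of the library (95% CI 11.7 to 12.2), and in pear the tenth highest of 105, with 1.51% (1.44 to 1.58). Orange had 0.0761% (0.0567 to 0.100), olive 0.0177% (0.00917 to 0.0310) and apple 0.00472% (0.00226 to 0.00867). The share in almond was 7.93 times that in pear (7.52 to 8.38), and the share in pear was 320 times that in apple (173 to 668). The ratio of almond to pear was 116 in deposited normalized reads and 2.89 with TMM sizes, and that of pear to apple was 1350 in normalized reads, 224 with TMM sizes and 185 with each library's 3 highest genes left out, above 1 under each. Such a change of scale is the same for every gene of a pair of foods. The order of the shares was thus almond, pear, orange, olive and apple, and the intervals of neighbours in that order did not overlap, although those of olive and apple nearly met.

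Its copy MIR7122b lies 9448 bp away on the same strand, from 2244304 to 2244423 (ENSRNA049995981), and was counted in almond alone, with 111 counts (0.195%, 0.160 to 0.234). Pear, with 1644 counts of MIR7122a, had 0 of MIR7122b among 108997 counts. The limit of 3 counts was 0.00275% there, and the exact interval of the share reached 0.00338%. Against the highest limit among the other 7 foods, that of walnut, the almond share of MIR7122b was 25.5-fold higher, with an exact interval for the ratio to walnut that starts at 20.4. The bound against walnut was 9.23 with TMM sizes, 13.8 without the 3 highest genes and 135 in normalized reads. With TMM sizes the limit of olive was above that of walnut (sizes of 29980 and 33844), so the bound against olive is lower there. Reads that fit both copies may have been split between them in a way the sources do not state, so the ratio of the copies is uncertain.

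Behind MIR7122a, 3 genes stood at 280 counts or more in almond and at 10 or fewer in every other food. MIR6281 (G8) had 331 counts in almond, 2 in apple, 1 each in orange and tomato, and 0 in the other 4 foods. MIR8130 (G5) had 301 in almond, 2 each in pear and tomato, 1 in spinach and 0 in the other 4. MIR8126 (G6) had 280 in almond, 10 in tomato, 4 in olive, 3 each in pear and apple, 2 in walnut and 0 in orange and spinach. Their shares in almond were 0.581% (0.520 to 0.647), 0.528% (0.470 to 0.591) and 0.491% (0.436 to 0.552), so the 3 intervals overlapped from gene to gene. They ranked eighteenth to twentieth among the miRNA genes of almond. MIR8126 was the most widely counted gene of the set beside MIR7122a, in 6 foods each. Its almond share was 44.5 times that in tomato (23.9 to 93.9), the food with the next highest share. The ratio to tomato was 28.7 with TMM sizes and 1158 in normalized reads. Tomato was not the next highest food under those scalings. In normalized reads olive (0.547) and walnut (0.522) were above tomato (0.231), and with TMM sizes olive was.

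A further 6 genes had between 51 and 182 counts in almond. MIR6293 (G5) had 182 in almond and 0 in the other 7 foods, which makes its almond share 41.8-fold higher than the walnut limit, with an exact interval for the ratio that starts at 33.6. The bound against walnut was 15.1 with TMM sizes, 22.6 without the 3 highest genes and 222 in normalized reads. With TMM sizes the bound against olive is again lower. MIR8123 (G3) had 126 in almond, 3 in spinach and 1 in orange. MIR6295 (G6) had 77 in almond and 3 each in orange and tomato, and MIR6270 (G4) had 74 in almond, 4 in tomato and 1 in orange. MIR6271 (G4) had 51 in almond and 1 each in orange and tomato. With MIR7122b these are the genes at 51 to 182 counts, and none of them had a count in pear or apple. Pear and apple, the relatives of almond within the rose family, thus had 0 counts on each of these 6 genes, while orange, tomato or spinach had 1 to 4 reads on 4 of them.

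The last 4 genes led by almond were low. MIR6258 (G1) had 43 counts in almond, 2 in tomato and 1 in olive, and MIR6277 (G6) had 16 in almond and 1 in olive. MIR8133 (G1) had 12 in almond and 1 each in orange and tomato. MIR6257 (G3) had 10 in almond, 5 in tomato and 2 in spinach, and its share in almond was 3.18 times that in tomato with an interval that includes 1 (0.991 to 11.9). For MIR6257 a difference between almond and tomato was thus not detectable at this depth in shares, nor with TMM sizes (2.05 times, 0.639 to 7.65), while the interval lay above 1 in normalized reads (82.7 times, 25.8 to 308). In shares, MIR6277 was 19.0 times olive (2.95 to 796) and MIR8133 14.1 times orange (2.09 to 603). With TMM sizes both intervals included 1, at 3.54 times (0.549 to 148) and 5.79 times (0.856 to 247). Without the 3 highest genes that of MIR8133 did too (6.65 times, 0.985 to 284).

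The group led by pear consisted of MIR7125, MIR6284, MIR6267a and MIR6282. MIR7125, the gene tied to lignin synthesis in apple, lies on G4 from 6342132 to 6342256 on the + strand (ENSRNA049996707). It had 408 counts in pear, 36 in apple, 2 in tomato, 1 in almond and 0 in orange, olive, walnut and spinach. It was the sixteenth highest gene in pear, at 0.374% (0.339 to 0.412), and the thirtieth in apple, at 0.0170% (0.0119 to 0.0235). The single almond count put the share in almond at 0.00469 times that in pear (0.000118 to 0.0263), against 0.00171 times with TMM sizes and 0.0687 times in normalized reads. MIR7122a and MIR7125 thus differed in which food was high: almond for MIR7122a, and pear, with almond at 1 count, for MIR7125.

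MIR6284 (G8) had 42 counts in pear, 16 in apple, 10 in tomato, 2 in almond, 1 in orange and 0 in olive, walnut and spinach. MIR6267a (G4) had 31 in pear, 19 in apple, 3 in almond, 1 in olive and 0 in the other 4 foods. MIR6282 (G8) had 16 in pear, 2 in apple and 0 in the other 6 foods, almond included. In deposited normalized reads almond was above pear for MIR6284 (1.33 times) and MIR6267a (2.71 times), so that the lead of pear over almond in these genes holds for shares and TMM sizes but not for that scaling. In pear and in apple alike, the 3 highest of the 65 genes apart from MIR7122a were MIR7125, MIR6284 and MIR6267a. As shares, pear was above apple by 22.05 times for MIR7125 (15.7 to 31.9), 15.6 times for MIR6282 (3.66 to 140), 5.11 times for MIR6284 (2.81 to 9.73) and 3.17 times for MIR6267a (1.74 to 5.95). Normalized reads made each of these ratios 4.22 times as large (93.0 for MIR7125 and 13.4 for MIR6267a). Without the 3 highest genes they were 12.8 for MIR7125 (9.07 to 18.5), 9.01 for MIR6282, 2.96 for MIR6284 and 1.84 for MIR6267a, whose interval then almost reached 1 (1.006 to 3.44). The share of MIR6284 in tomato (0.0110%, 0.00529 to 0.0203) and that in apple (0.00755%, 0.00431 to 0.0123) had overlapping intervals.

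**Figure D3:**
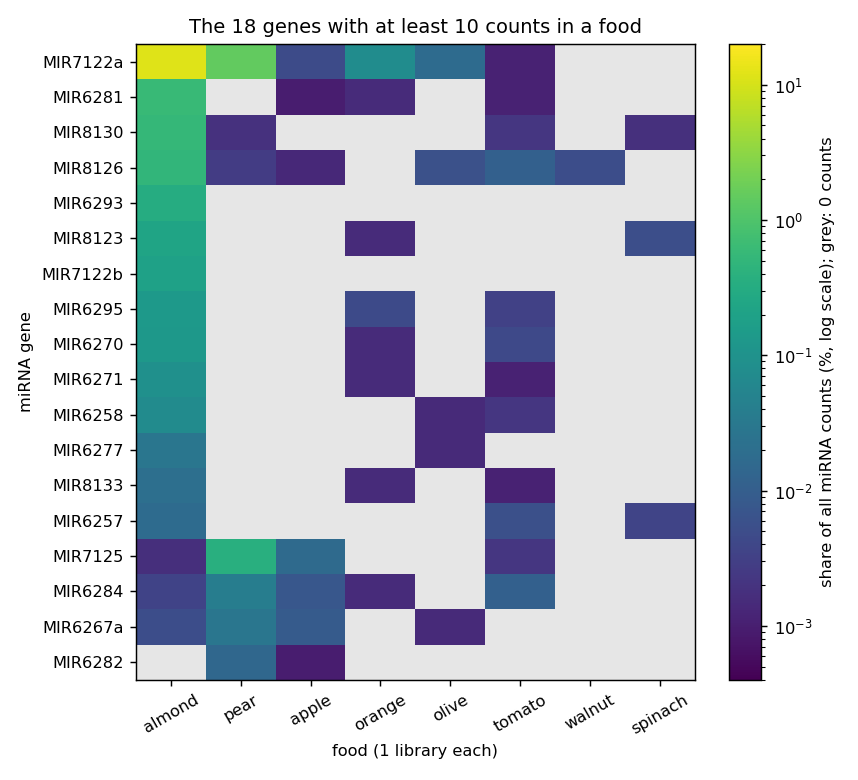
Share of all miRNA counts (percent, log colour scale, grey for 0 counts) of the 18 high-numbered genes with at least 10 counts in a food, genes as rows and foods as columns, 1 library each. The upper 14 rows are highest in almond, and the lower 4 rows (MIR7125, MIR6284, MIR6267a and MIR6282) are highest in pear; apple is next in these except for MIR6284, where tomato is.

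**Figure D4:**
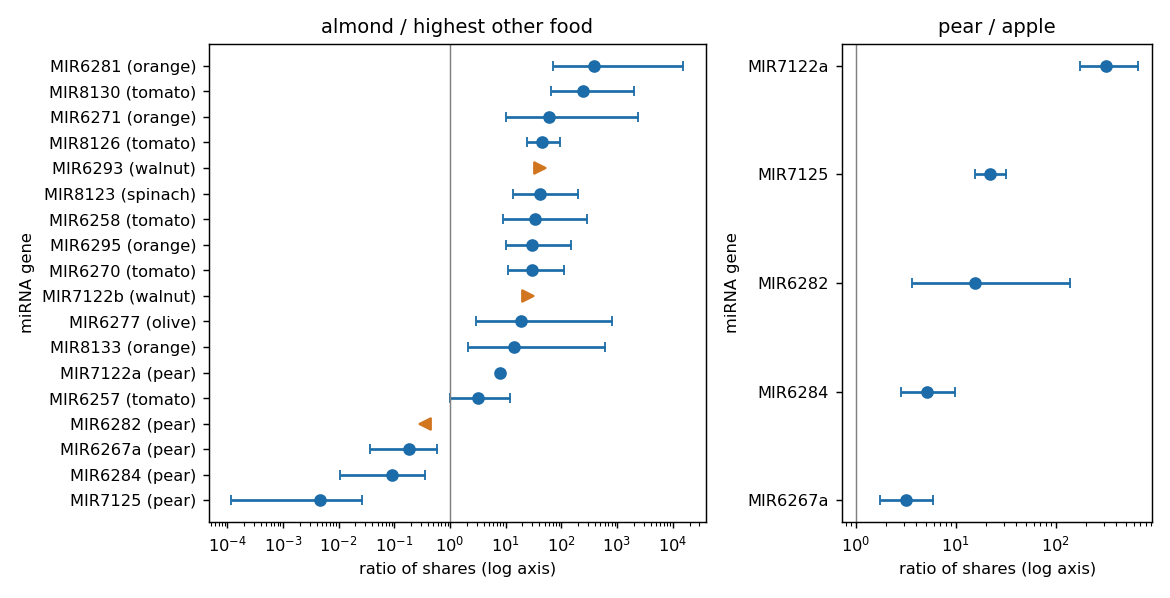
Ratio of shares (log axis) in almond over the food with the highest share among the other 7, named in parentheses (left), and in pear over apple (right). Circles are ratios with exact 95% intervals for counting error, and triangles are bounds for genes at 0 counts in one of the foods, with 3 counts as the limit; 14 genes lie above 1 on the left and all 5 genes lie above 1 on the right. Most genes on the left reached 10 counts only in almond.

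Another 16 genes had a highest count of 3 to 9. In 12 of them almond was highest: MIR6265 with 9 counts, MIR6260, MIR6267c and MIR6274b with 8 each, MIR6275 and MIR6290 with 6 each, MIR6285, MIR6289 and MIR6292 with 5 each, and MIR6274a, MIR6296 and MIR8128 with 4 each. The other 4 were highest elsewhere by count. MIR8125 had 8 counts in olive, 2 in pear, 1 each in orange, tomato and spinach, and 0 in almond, apple and walnut. MIR6279 had 6 counts in walnut and 2 in apple, and it made up 6 of the 8 high-numbered counts of walnut. MIR6266b had 4 counts in olive and 0 in the other 7 foods. MIR6291c had 3 counts in almond and 4 in pear, and its share was 0.00526% in almond (0.00109 to 0.0154) and 0.00367% in pear, with overlapping intervals.

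Outside the rose family, 10 of the 65 genes (15.4%, against 52.2% of all 209 genes) reached 3 counts in at least 1 of the 5 foods, and 3 (4.62%, against 40.2% of all genes) reached 10: MIR7122a in orange and olive, and MIR8126 and MIR6284 in tomato. The 5 foods together had 182 counts on the 65 genes, of which 35.2% were on MIR7122a. The genes highest in these foods were MIR7122a in orange (51 counts) and in olive (12), MIR8126 and MIR6284 in tomato (10 each), MIR6279 in walnut (6) and MIR8123 in spinach (3).

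No gene of the set was counted in all 8 foods, and 9 (13.8%, against 46.9% of all genes) were counted in 4 or more: MIR7122a and MIR8126 in 6, MIR6284 and MIR8125 in 5, and MIR6267a, MIR6273, MIR6281, MIR7125 and MIR8130 in 4. MIR6273 had 1 count in each of pear, orange, olive and tomato and none elsewhere, so a wide spread over foods did not go with a high level in this gene. In 1 food only, 18 genes were counted (27.7%, against 14.4% of all genes). Of these, 8 were counted in almond alone (12.3%, against 5.26% of all genes), namely MIR6293, MIR7122b, MIR6265, MIR6290 and MIR6274a, all described above, MIR8129 and MIR8132 with 2 counts each, and MIR6266c with 1. The other 10 were counted in 1 other food each, with 1 to 4 counts.

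In all 8 foods, 8 of the 65 genes had no count: MIR6259, MIR6278, MIR6287, MIR6288a, MIR6288c, MIR8122, MIR8127 and MIR8131. The share counted somewhere, 87.7%, was close to the 89.5% of all 209 genes. A further 23 had a highest count of 1 or 2, so 34 of the 65 reached 3 counts, against 151 of all 209 genes. A share below the limits given above could go uncounted in any of these libraries.

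The copies within a family were counted in different foods in some cases. The 7 families with more than 1 gene hold 18 of the 65 genes. Of the MIR6267 genes, MIR6267a was highest in pear (31 counts) with 3 in almond, whereas MIR6267c had 8 counts in almond, 1 each in olive and tomato, and 0 in pear and apple, and MIR6267b had 2 in apple and 1 in olive. The 2 MIR6274 genes were both highest in almond, with 4 and 8 counts. The 3 MIR6288 genes had 1 count among them, in olive. The 3 MIR6291 genes had 5 counts each in almond and pear, the 3 MIR6266 genes 6 counts in all, 4 of them in olive, and the 2 MIR6297 genes at most 2 counts in any food. How reads that fit several copies were divided is not given in the sources used here, so the split of counts within each of these 7 families is uncertain, and most of these counts are small.

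The genes lay apart from one another in the peach genome. They are spread over all 8 chromosomes, from 5 on G2 to 13 on G4, with 39 on the + strand and 26 on the - strand. Only 4 of the 65 lay within 10000 bp of another annotated miRNA gene, against 64 of the 144 genes with lower family numbers, and the median gap to the nearest miRNA gene was 538807 bp, against 27833 bp for those 144 genes. The 4 are the MIR7122 pair and MIR6273 with MIR6274a, which lie 6175 bp apart on opposite strands of G5. In this second pair MIR6274a had 4 counts, all in almond, and MIR6273 had 0 in almond. The annotated precursors had a median length of 119 bp (range 74 to 377), against 127 bp (range 78 to 403) for the genes with lower numbers.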

How the data were processed

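Small RNA libraries of 8 foods, 1 per food, were analyzed. Per the study's methods, skewer took off the adapters, reads from 15 to 30 bases long were placed on peach (assembly NCBIv2, miRNAs of miRBase 22) by ShortStack with up to 2 seed mismatches, and HTSeq made strand-specific counts per gene. The deposited counts are whole numbers without normalization. The deposited normalized reads are a signal that the authors made with DESeq2, 1 factor per library; HTSeq and DESeq2 are also named in the submitters' processing notes, without a version. The study's text does not describe the almond sample. The labels give 0.5 g of input for almond and walnut and 0.1 g for the other foods. The sources differ on walnut, and no mass entered a calculation.

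Genes were grouped by family number. The genes and rules were chosen with earlier results of these data known. Genes with at least 10 counts in a food were named with their counts in every food, those with 3 to 9 with their highest food, and those in 4 or more foods, in almond only or in none by symbol. Shares used the column total (39249 to 212021 counts), so that 3 counts set the limit of detection. Numbers at equal depth came from the hypergeometric formula. Ratios were recomputed with deposited normalized reads, edgeR TMM sizes and without the 3 highest genes. Each recomputed ratio kept the pair of foods chosen by shares. No test compared foods, since each had 1 library; Dixon's test was used only to see which libraries stood apart. Calculations were tested on simulated data. No mature sequence was at hand, and 0 gene IDs matched the almond gene table. Scripts ran in Python 3.11.15 with scipy 1.17.1 (statistics), pandas 2.3.3 and numpy 2.4.6 (tables) and matplotlib 3.10.9 (plots), and edgeR 4.0.16 ran in R 4.3.3.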

Additional observations from a re-analysis of the deposited data

Results flagged for a closer look

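Almond stood apart from the other 7 libraries by Dixon's test at the 95% level in 3 of 4 measures of the high-numbered genes. These were the 36.5 genes expected at 39249 counts, the 14.96% of all miRNA counts on the 65 genes, and the 2.997% on the 64 genes without MIR7122a. The number of genes with at least 1 count, 39 in almond, was not set apart. The 8 foods are different plants and not replicates, the measures share their counts, and chance sets about 1 in 20 groups of normally distributed values apart in this way. The shares were not of that kind, since they ran from 0.0164% in spinach to 14.96% in almond for the 65 genes. The 2 flags on shares thus hold for the percent scale only, and a log scale was not tested.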

How the results depend on the processing

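No paired analysis was possible because each food had 1 library. Of the 65 genes, 57 were counted in any food, 34 with at least 3 counts and 18 with at least 10, and 49 without the almond library. With at least 10 counts the number per food was 14 in almond, 5 in pear, 4 in apple, 1 in orange, 1 in olive, 2 in tomato, 0 in walnut and 0 in spinach. With at least 3 counts it was 7 in pear, 5 in apple, 2 in orange, 4 in olive, 5 in tomato, 1 in walnut and 1 in spinach, and at equal depth 10.3 in pear, 6.54 in apple, 10.1 in orange and 13.5 in tomato. In almond it was 28 with at least 3 counts and 36.5 at equal depth, so almond stayed highest under each rule.

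The share on the 65 genes followed the denominator. Without the highest gene of each library it was 17.3% in almond, 3.65% in pear, 0.0720% in apple, 0.180% in orange and 0.0841% in tomato. Without the 3 highest genes, which in almond include MIR7122a, it was 4.73% in almond, below the 5.49% in pear, and 0.219% in apple, 0.339% in orange, 0.131% in olive, 0.147% in tomato, 0.0594% in walnut and 0.0491% in spinach. Without both MIR7122 genes it was 2.80% in almond, 0.472% in pear, 0.0254% in orange and 0.0444% in olive.

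With deposited normalized reads the ratio of almond to pear turned from below 1 to 2.71 for MIR6267a and 1.33 for MIR6284, which follows from the small almond factor (1.05, against 29.4 in pear), and MIR6282 had no direction. The ratio of almond to pear for MIR7122a was 116 with normalized reads and 2.89 with TMM, against 7.93 in shares. The 14 genes above 1 in almond became 16 with normalized reads, 14 with TMM and 13 of 17 without the 3 highest genes, and all 5 ratios of pear to apple stayed above 1, at 4.22 times their value in shares with normalized reads, 0.702 times with TMM and 0.579 times without the 3 highest genes. Most of the 14 genes had reached 10 counts only in almond. With TMM the intervals of MIR6257, MIR6277 and MIR8133 included 1. By alternatives chosen after seeing the data, 15 high-numbered genes were at least 10 times higher in almond with normalized reads, against 9 in shares. With TMM there were 4 (MIR6281, MIR6293, MIR8126 and MIR8130). Over all miRNA genes the numbers were 35 with normalized reads and 8 with TMM, against 14 in shares. High-numbered genes highest in almond were 38 with normalized reads and 28 with TMM, against 35 in shares. Over all miRNA genes they were 86 and 47, against 60, so the number for the whole annotation moved with the scaling too. Outside almond most values above 0 are 1 or 2 reads (68 of 93), so depth limits any statement on them.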

Other observations

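In deposited normalized reads, 1 count was worth 0.954 in almond, 0.0341 in pear and 0.00415 in apple. As a result the 3 counts of MIR6267a in almond stood at 2.86 normalized reads, above the 1.06 of its 31 counts in pear and the 0.0788 of its 19 counts in apple. MIR7125, with 36 counts in apple, stood there at 0.149 normalized reads, below the worth of a single almond count.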
